A study of Mus musculus with 4 samples.

Results

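The genes described here are 10 genes of nitric oxide, cGMP and natriuretic peptide signalling, Nos1, Nos3, Gucy1a1, Gucy1b1, Prkg1, Pde5a, Npr1, Npr2, Npr3 and Corin. They were taken from a fixed list of vascular relaxation genes and looked up by symbol, and not by a threshold on their values, among the 55421 genes counted in each library, and the list was drawn up with earlier results of these data known. The study sequenced RNA of uterine lysates from pregnant mice at E18.5, shortly before birth. It compared mice with and without Qa2, the mouse MHC class I molecule used as a counterpart of human HLA-G. The 2 WT mice were C57BL/6J, and the 2 Qa2- mice were of the strain B6.Cg-H2b3/FlaCmwJ, with 1 library per mouse and no treatment in either group. The Qa2- strain is an inbred congenic line in which the H2 region differs from that of WT, so the groups differ in strain and not by a targeted deletion of a single gene. All mice were pregnant, and no uterus of a non-pregnant mouse was analysed here. The labels give the gestational age and no age of the mothers.

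In blood vessels, nitric oxide made by the endothelial synthase diffuses into smooth muscle and activates soluble guanylyl cyclase, an enzyme of an alpha and a beta subunit. The cGMP it makes activates the kinase encoded by Prkg1, which lowers calcium and relaxes the cell, and phosphodiesterases such as Pde5a degrade cGMP. Natriuretic peptides raise cGMP by another way, through membrane receptors that are guanylyl cyclases themselves. In pregnancy these pathways are known for the relaxation of uterine muscle and for the adaptation of the maternal arteries.

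Counts per library summed to between 33286390 and 41041299 read pairs. The Qa2 genes checked the labels: H2-Q6 had 4204 and 1192 counts in the WT libraries and 3 in each Qa2- library, and H2-Q7 had 6318 and 1251 counts against 4 and 2. Both lie on chromosome 17, which holds none of the 10 genes. A set of 6 uterine identity genes (Pgr, Esr1, Hoxa10 and others) summed to between 828 and 959 CPM (counts per 1000000 of the library size after TMM scaling) in every library. All libraries thus held the labelled tissue, while the sums of several cell type markers differed between them. The 9 endothelial markers summed to 1439 and 1343 CPM in WT and to 723 and 656 CPM in Qa2-, and for each of the 9 the groups did not overlap, with WT higher, beside 25.4% of all genes tested. The 9 smooth muscle markers summed to 27550 and 45912 CPM in WT and to 24767 and 13250 CPM in Qa2-, and the 7 epithelial markers to 2208 and 1298 CPM against 3045 and 2937 CPM. Of the smooth muscle markers, 6 were higher in WT without overlap, while Myh11, Smtn and Synpo2 overlapped. An unadjusted edgeR p under 0.05 was found for 0 of the 9 smooth muscle markers and for all 9 endothelial markers. The sums of 4 mesothelial markers (64.0 and 52.8 CPM against 20.9 and 11.5 CPM) and of 4 erythroid markers (346 and 676 CPM against 109 and 72.0 CPM) were also higher in WT, and those of 6 leukocyte markers overlapped. Of 8 trophoblast and yolk sac markers, 3 passed the filter described next, and the sum of all 8 was 5.31 and 57.4 CPM in WT and 406 and 21.8 CPM in Qa2-, highest in Qa2- replicate 1 through Afp, which encodes alpha-fetoprotein. WT replicate 2 stood apart in other markers of this list. Psg21 had 308 counts and Prl3b1 155 counts in it, and both had 0 in every other library. Tpbpa had 4 and 271 counts in WT and 115 and 5 in Qa2-.

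Of the 10 genes, 8 passed the filter of 1 CPM in at least 2 libraries, all 8 with more than 1 CPM in every library, and Nos1 and Corin did not. The endothelial synthase Nos3 and both subunits of soluble guanylyl cyclase, Gucy1a1 and Gucy1b1, were 1.86 to 2.45 times higher in WT than in Qa2- uteri as fitted. The kinase Prkg1, the phosphodiesterase Pde5a and the receptors Npr1 and Npr2 lay in overlapping ranges. None of the 8 passed the edgeR quasi-likelihood test with Benjamini-Hochberg adjustment at 0.05, and neither did any of the 14492 genes tested, 0% in each direction. At an unadjusted edgeR p under 0.05, 3 of the 8 were higher in WT, beside 8.09% of all genes tested, and 0 were higher in Qa2-, beside 7.09%. DESeq2 called the same 3 genes, Nos3, Gucy1a1 and Gucy1b1, as higher in WT, beside 2.79% of all genes, and 0 as higher in Qa2-, beside 2.04%. On the simulated counts described below, DESeq2 called more unchanged genes than its threshold allows, and more so than edgeR. Without Qa2- replicate 1, which stood apart in Afp, 3 of the 8 genes were under an unadjusted edgeR p of 0.05, beside 12.3% of all genes in both directions together. In that fit the spread comes from the WT pair alone, and the lone Qa2- library is assumed to vary like it. In 4 of the 8, both WT libraries were above both Qa2- libraries, beside 25.4% of all genes. In none did both Qa2- libraries lie above both WT libraries, beside 24.5%. The median log2 fold change, WT minus Qa2-, of the 8 genes was 0.42, with a range from -0.10 to 1.29, beside a median of 0.01 over all genes tested. Leaving out 1 library moved the median of the 8 to between 0.26, without WT replicate 2, and 0.64, without Qa2- replicate 1. For a single gene, an exact permutation test of 2 against 2 libraries cannot give a two-sided p below 0.33.

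**Figure D1:**
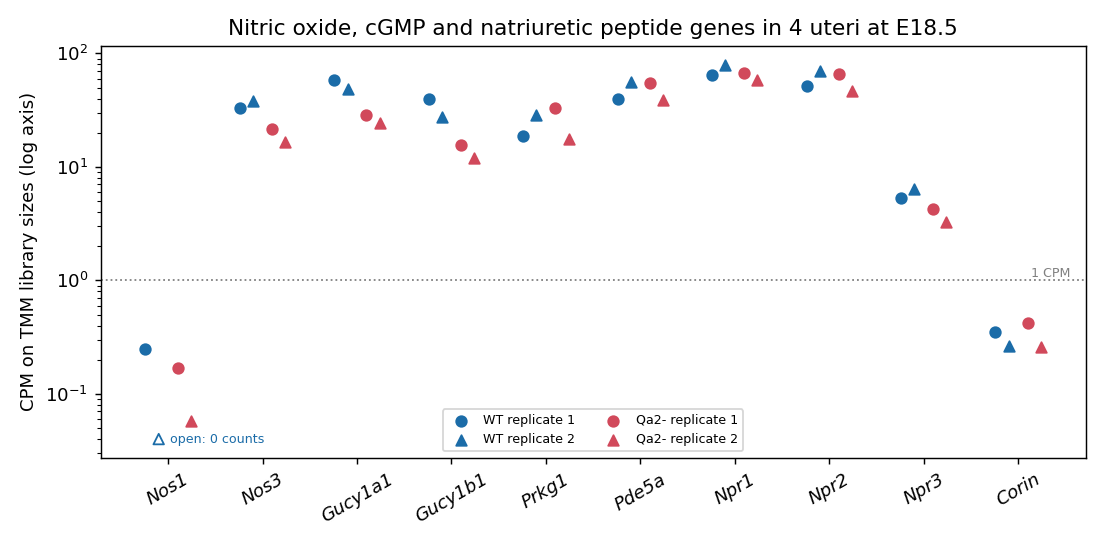
CPM on TMM library sizes (log axis) of the 10 genes in the 4 uteri, with WT in blue, Qa2- in red, circles for replicate 1 and triangles for replicate 2; the dotted line is 1 CPM and the open triangle stands for 0 counts. For Nos3, Gucy1a1, Gucy1b1 and Npr3 both WT symbols lie above both Qa2- symbols, and Nos1 and Corin lie below 1 CPM in every library.

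Levels of different genes were compared as RPKM, that is, CPM per kilobase of the exon length in the files. In every library, Npr1 was the highest of the 10 genes, at 12.3 to 16.6 RPKM, and Npr2 the next, at 10.004 to 14.8 RPKM. Nos3, Gucy1a1, Gucy1b1 and Pde5a shared the middle places, between 3.07 and 10.2 RPKM, and their order changed from library to library. Gucy1b1 took places 3 and 4 in the WT libraries and place 6 in both Qa2- libraries, whereas Pde5a took place 6 in both WT libraries and places 3 and 4 in the Qa2- libraries. Prkg1, Npr3, Corin and Nos1 took the last 4 places, in this order, in each library. Among neighbours in this order, the ranges over the 4 libraries of Npr1 and Npr2 overlapped, as did those of the 4 genes in the middle. Those of Prkg1 and Npr3 did not.

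The synthases differed greatly in level. Nos3, the endothelial nitric oxide synthase, had 1327 and 1426 counts in the WT libraries and 763 and 579 in the Qa2- libraries, or 33.1 and 37.8 CPM against 21.5 and 16.6 CPM. The groups did not overlap, and the means were 35.4 ± 3.36 CPM in WT and 19.0 ± 3.50 CPM in Qa2- (SD, n = 2 each). The fitted log2 fold change was 0.90 (SE 0.20), a 1.86-fold difference with a 95% interval from 1.31 to 2.65, which is not adjusted for the number of genes. The edgeR p was 0.00589 and its Benjamini-Hochberg adjusted value 0.246. DESeq2 gave an adjusted p of 0.0295, and over the 13 alternatives with a test the adjusted p lay between 0.0295 and 0.818. In bulk tissue such as this, fewer cells of a type and less RNA per cell cannot be told apart. The gene (ENSMUSG00000028978) lies on the plus strand at chr5:24364810-24384474 of GRCm38, with exons of Gm15587 and Atg9b on the opposite strand. Reads were counted by strand. Nos1, the neuronal synthase (ENSMUSG00000029361, plus strand of chr5:117781032-117958840), had 10 and 0 counts in WT and 6 and 2 in Qa2-. At this depth 3 counts equal 0.0747 to 0.0858 CPM, and no difference in Nos1 was detectable. Of 8 nerve and glia markers, 2 passed the filter, Elavl4 had 0 counts in every library, and the summed level was 76.3 and 125 CPM in WT and 29.2 and 13.8 CPM in Qa2-, nearly all of it from Uchl1.

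Soluble guanylyl cyclase, the receptor of nitric oxide, had the largest fitted differences among the 8 genes tested with all 4 libraries, though Gucy1a1 and Nos3 differed by no more than their standard errors and changed places without WT replicate 1. Gucy1a1, which encodes the alpha subunit, had 2325 and 1820 counts in WT and 1019 and 858 in Qa2-, or 57.9 and 48.3 CPM against 28.7 and 24.5 CPM. Gucy1b1, which encodes the haem-binding beta subunit, had 1607 and 1043 counts in WT and 552 and 422 in Qa2-, or 40.03 and 27.7 CPM against 15.6 and 12.1 CPM. For both subunits the lower WT library was well above the higher Qa2- library. The means were 53.1 ± 6.84 and 26.6 ± 2.96 CPM for Gucy1a1 and 33.8 ± 8.76 and 13.8 ± 2.47 CPM for Gucy1b1 (SD, n = 2 each). Gucy1a1 was 1.99-fold higher in WT (95% interval 1.45 to 2.74, log2 fold change 0.996, SE 0.18), with an edgeR p of 0.00238 and an adjusted p of 0.246. Gucy1b1 was 2.45-fold higher in WT (95% interval 1.56 to 3.84, log2 fold change 1.29, SE 0.26), with an edgeR p of 0.00353 and an adjusted p of 0.246. Neither passed edgeR's adjusted threshold, and both passed that of DESeq2. The DESeq2 adjusted p was 0.00536 for Gucy1a1 and 0.0036 for Gucy1b1, and over the 13 alternatives with a test the adjusted p reached 0.818 for each. Without any one library the log2 fold change stayed between 0.83 and 1.12 for Gucy1a1 and between 0.97 and 1.53 for Gucy1b1.

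Both subunit genes lie on the minus strand of chromosome 3 of GRCm38, Gucy1a1 (ENSMUSG00000033910) at chr3:82092427-82145789 and Gucy1b1 (ENSMUSG00000028005) at chr3:82032006-82074689. The gap between them is 17737 bases and holds 0 annotated genes. Gucy1a1 shares 1 base with Mir7010 on the same strand. Bases upstream of the RefSeq starts of the 2 subunit genes are shown because these neighbours were both higher in WT without overlap. Those of Npr1 are shown because it lies on the same chromosome and strand with overlapping groups. Sequences are those of RefSeq on GRCm38.p6, 5′ to 3′ on the minus strand, and capitals mark the GC box GGGCGG and the CCAAT box, on either strand.
Gucy1b1, chr3:82074712-82074961: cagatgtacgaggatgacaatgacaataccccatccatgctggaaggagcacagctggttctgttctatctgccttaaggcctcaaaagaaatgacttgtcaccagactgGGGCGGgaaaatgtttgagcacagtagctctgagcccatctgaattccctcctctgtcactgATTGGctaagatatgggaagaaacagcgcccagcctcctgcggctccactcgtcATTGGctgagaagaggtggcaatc
Gucy1a1, chr3:82145790-82145900: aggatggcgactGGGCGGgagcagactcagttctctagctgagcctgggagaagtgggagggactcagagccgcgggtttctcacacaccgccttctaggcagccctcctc
Npr1, chr3:90465867-90466116: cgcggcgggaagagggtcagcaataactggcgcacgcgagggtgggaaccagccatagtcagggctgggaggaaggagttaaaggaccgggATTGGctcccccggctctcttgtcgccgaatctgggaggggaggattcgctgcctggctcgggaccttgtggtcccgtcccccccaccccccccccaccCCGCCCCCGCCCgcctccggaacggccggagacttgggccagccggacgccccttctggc
For Gucy1a1, the stretch printed is the far part of the window, which lies outside the gene as annotated in the files, and the bases next to the RefSeq start are not shown. In the full windows of 250 bases, Gucy1b1 held 1 GC box and 2 CCAAT boxes, Gucy1a1 held 1 GC box and no CCAAT box, and Npr1 held 2 GC boxes and 1 CCAAT box. Of all 32851 windows of this length in the table, 32.74% held a GC box and 33.85% a CCAAT box, so either is common. GC content was 51.2% for Gucy1b1, 64.0% for Gucy1a1 and 70.4% for Npr1, beside a median of 52.4% over all windows. The letters AGATAA (9.99% of windows), TATAAA (12.37%) and the CArG box (1.47%) were also searched for on both strands, with no match in these 3 windows. The window before the second RefSeq start of Gucy1a1 held none of the 5 motifs. A window was found for 9 of the 10 genes, the exception being Nos3.

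Downstream of the cyclase, neither the kinase nor the phosphodiesterase separated the groups. Prkg1, the cGMP-dependent protein kinase of smooth muscle (chr19:30564489-31765033, minus strand), was at 18.8 and 28.9 CPM in WT and at 33.2 and 17.8 CPM in Qa2-. Pde5a, the cGMP-specific phosphodiesterase that sildenafil inhibits (chr3:122728947-122859374, plus strand), was at 39.5 and 56.4 CPM in WT and at 54.6 and 38.7 CPM in Qa2-. In both genes the highest and the lowest pair of libraries each held 1 library of each group, so that the spread within a group exceeded the difference between groups. The fold of WT over Qa2- was 0.936 for Prkg1 (95% interval 0.488 to 1.80, edgeR adjusted p 0.915) and 1.03 for Pde5a (95% interval 0.648 to 1.63, edgeR adjusted p 0.950). These intervals include differences in either direction, so that a p above the threshold does not show equal levels. The direction of each rested on single libraries. The log2 fold change of Prkg1 was 0.15 without WT replicate 1 and 0.43 without Qa2- replicate 1, and that of Pde5a was -0.24 without WT replicate 2 and -0.19 without Qa2- replicate 2.

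The cyclase receptors Npr1 and Npr2 were the most abundant of the 10 genes per kilobase, and the clearance receptor Npr3 was among the least. Npr1, the receptor of atrial and brain natriuretic peptide (chr3:90450591-90465866, minus strand), was at 64.0 and 79.6 CPM in WT and at 67.8 and 58.7 CPM in Qa2-. Npr2, the receptor of C-type natriuretic peptide (chr4:43631935-43651244, plus strand), was at 51.2 and 69.3 CPM in WT and at 65.6 and 46.7 CPM in Qa2-. The groups overlapped for both receptors. The fold of WT over Qa2- was 1.14 for Npr1 (95% interval 0.826 to 1.56, edgeR adjusted p 0.653) and 1.07 for Npr2 (95% interval 0.696 to 1.65, edgeR adjusted p 0.865). The log2 fold change of Npr2 turned to -0.14 without WT replicate 2 and to -0.12 without Qa2- replicate 2. Npr3, the clearance receptor, which takes up natriuretic peptides and has no cyclase domain (chr15:11839896-11907287, minus strand), had 214 and 242 counts in WT and 150 and 114 in Qa2-, or 5.33 and 6.42 CPM against 4.23 and 3.26 CPM. Its groups did not overlap, but the difference passed neither tool, with a fold of 1.57 (95% interval 0.930 to 2.64), an edgeR p of 0.0780 and adjusted p of 0.371, and a DESeq2 adjusted p of 0.390. Corin, the protease that activates pro-atrial natriuretic peptide and is known to be needed in the pregnant uterus for artery remodelling (chr5:72300025-72504473, minus strand), had 14 and 10 counts in WT and 15 and 9 in Qa2-. Its levels of 0.257 to 0.423 CPM were below the filter in every library, and the groups overlapped. Of 5 cardiac muscle markers, a tissue in which Corin is abundant, 2 passed the filter.

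**Figure D2:**
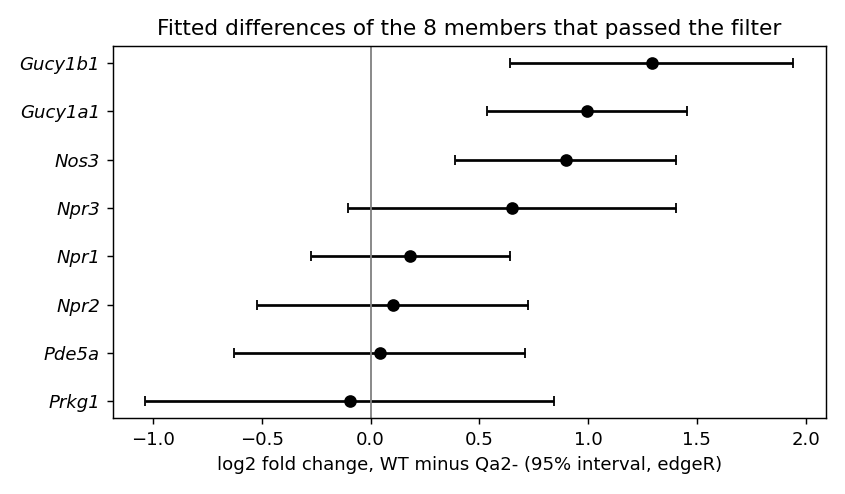
Fitted log2 fold change, WT minus Qa2-, of the 8 genes that passed the filter, with 95% intervals from edgeR that are not adjusted for the number of genes. The intervals of Gucy1b1, Gucy1a1 and Nos3 lie above 0 and the others include 0, and none of the 8 passed the adjusted threshold of edgeR.

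The sums of the endothelial and smooth muscle markers also differed between the groups, so each gene was set against these sums in its own library. Per 1000 CPM of endothelial markers, Nos3 was at 22.98 and 28.1 CPM in WT and at 29.7 and 25.2 CPM in Qa2-, and Gucy1a1 was at 40.3 and 35.9 CPM against 39.7 and 37.4 CPM. For both genes the groups overlapped on this scale. The ratio of the group means, WT over Qa2-, was 0.930 for Nos3, 0.988 for Gucy1a1 and 1.21 for Gucy1b1. For Gucy1b1, at 27.8 and 20.6 CPM in WT against 21.5 and 18.4 CPM in Qa2-, the groups overlapped as well. The 4 tested genes that overlapped in plain CPM, Prkg1, Pde5a, Npr1 and Npr2, separated on the endothelial scale, with WT lower, as did 87.8% of all genes tested, so this is not particular to them. On the same scale 1.36% of all genes separated with WT higher. Prkg1 was at 13.1 and 21.5 CPM per 1000 CPM of endothelial markers in WT and at 46.0 and 27.1 CPM in Qa2-, a ratio of 0.474. The ratio was 0.517 for Pde5a, 0.566 for Npr1 and 0.538 for Npr2, with both WT libraries below both Qa2- libraries in each. Npr3, higher in WT in plain CPM, was lower in WT on this scale, with 3.71 and 4.78 CPM per 1000 CPM in WT against 5.85 and 4.97 CPM in Qa2-, a ratio of 0.784. Against the smooth muscle markers the ratios were similar in size, 0.956 for Nos3, 1.05 for Gucy1a1, 1.34 for Gucy1b1, 0.490 for Prkg1, 0.520 for Pde5a, 0.566 for Npr1 and 0.545 for Npr2. On the smooth muscle scale the groups overlapped for Nos3, Gucy1a1, Gucy1b1 and Npr3, and both WT libraries were below both Qa2- libraries for the other 4, beside 61.6% of all genes (1.05% with WT higher). Against the 6 pericyte markers, whose sum differed less between the groups, with a ratio of 1.45, Nos3 and Gucy1b1 were higher in WT without overlap, beside 3.96% of all genes. Per 1000 CPM of pericyte markers, Nos3 was at 57.1 and 39.3 CPM in WT and 36.0 and 35.6 CPM in Qa2-, and Gucy1b1 at 69.1 and 28.8 CPM against 26.0 and 25.9 CPM. The ratio was 1.35 for Nos3, 1.88 for Gucy1b1 and 1.49 for Gucy1a1, whose groups overlapped on the pericyte scale. These values rested on WT replicate 1, without which the ratio was 1.11 for Gucy1b1, 0.997 for Gucy1a1 and 1.10 for Nos3. Without the same library the ratios on the smooth muscle scale were 0.783 for Gucy1b1, 0.698 for Gucy1a1 and 0.778 for Nos3, all below 1. Without WT replicate 2 instead, they were 1.89, 1.40 and 1.13 in the same order, all above 1. The pericyte ratios were then 2.66, 1.99 and 1.60. The direction on the smooth muscle scale thus turned with the WT library left out. Prkg1, Pde5a, Npr1 and Npr2 were lower in both WT libraries than in either Qa2- library on the pericyte scale, beside 40.9% of all genes, with ratios of 0.668, 0.728, 0.807 and 0.764. Each marker sum was about 2 times higher in WT, at 2.02 for endothelium and 1.93 for smooth muscle, and dividing by it shifts every gene alike, the median log2 fold change of all genes becoming -1.003 with the endothelial and -0.99 with the smooth muscle sum. The part of the cell types in the differences of Nos3, Gucy1a1 and Gucy1b1 was not tested.

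**Figure D3:**
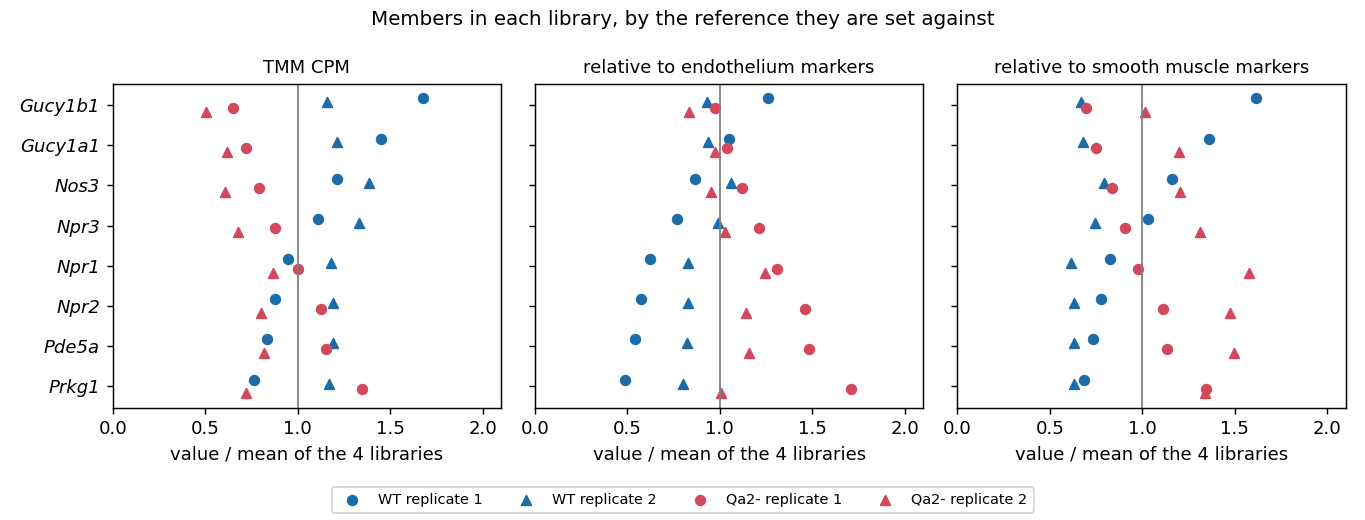
Each of the 8 genes in the 4 uteri on 3 scales: TMM CPM, relative to the summed endothelial markers, and relative to the summed smooth muscle markers. The x axis is the value divided by the mean of the 4 libraries, with WT in blue, Qa2- in red, circles for replicate 1 and triangles for replicate 2. The groups separate for the upper 4 genes in the CPM panel, and for the lower 4 genes, with WT lower, in both marker panels, joined by Npr3 in the endothelial panel, where 87.8% of all genes did the same.

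The libraries also differed within the groups. In each group the library with more smooth muscle marker RNA, WT replicate 2 and Qa2- replicate 1, also had the higher level of Prkg1, Pde5a, Npr1, Npr2, Nos3 and Npr3. The 6 pericyte markers had the same order within each group, with sums of 579 and 961 CPM in WT and 598 and 466 CPM in Qa2-. Gucy1a1 and Gucy1b1 had the opposite order in WT, where replicate 1 was higher, and the endothelial sum of replicate 1 was higher in both groups.

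Members of the pathway were also set against each other as ratios within a library, which do not depend on the scaling of that library and were chosen after the values were seen. Per kilobase, Gucy1b1 stood to Pde5a as 2.54 and 1.23 in WT and 0.713 and 0.781 in Qa2-. Gucy1a1 stood to Pde5a as 2.07 and 1.21 in WT and 0.742 and 0.895 in Qa2-. In every WT library the transcripts of either cyclase subunit thus exceeded those of Pde5a, and in every Qa2- library they were below them. The fitted fold of Pde5a was 1.03, so these ratios largely restate the differences of the subunit genes given above. Their position relative to 1 depends on the exon lengths used. The share of all gene pairs that separate in this way was not computed. The ratio of the group means for Gucy1b1 to Pde5a was 2.52, and 1.64 without WT replicate 1. The ratio of the alpha to the beta subunit was close to 1 throughout, at 0.815 and 0.983 in WT and 1.04 and 1.15 in Qa2-. Nos3 stood to Prkg1 as 4.69 and 3.50 in WT and 1.73 and 2.49 in Qa2-. The signalling receptor Npr1 stood to the clearance receptor Npr3 as 23.6 and 24.4 in WT and 31.5 and 35.3 in Qa2-, and the ratio of Npr1 to Npr2 stayed between 1.01 and 1.23 with overlapping groups. No p was computed for these ratios, which compare transcripts of single genes, and cGMP was not measured here.

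A wider set of 55 genes of the same pathways, in 5 lists, was read in the same way, and 42 of them passed the filter. None passed the adjusted test of edgeR (smallest adjusted p 0.271) or of DESeq2 (smallest adjusted p 0.0578). At an unadjusted edgeR p under 0.05, 2 of the 42 were higher in WT (4.76%, beside 8.09% of all genes) and 3 were higher in Qa2- (7.14%, beside 7.09%). These shares were near or under those of all genes tested. The groups did not overlap in 11 genes with WT higher (26.19%, beside 25.4% of all genes) and in 8 with Qa2- higher (19.05%, beside 24.5%), and the median log2 fold change was -0.0029.

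In the list of nitric oxide supply, 16 of 17 genes passed the filter, with a median log2 fold change of -0.08. Its most abundant genes were Cav1, which encodes caveolin and binds the endothelial synthase, and Hsp90aa1, a chaperone that aids the synthase. Cav1 was at 693 and 952 CPM in WT and 629 and 423 CPM in Qa2- (edgeR adjusted p 0.403), and Hsp90aa1 at 312 and 307 CPM against 270 and 247 CPM (edgeR adjusted p 0.545). Neither group pair overlapped, and neither gene passed the test. Ddah1, which degrades the endogenous synthase inhibitor asymmetric dimethylarginine and was named after its values were seen, was at 15.9 and 14.7 CPM in WT and 10.6 and 5.49 CPM in Qa2-. Its log2 fold change was 0.92 (SE 0.35), with an edgeR p of 0.0454 and an adjusted p of 0.320. The inducible synthase Nos2, likewise named after its values were seen, was below the filter with 17 and 25 counts in WT and 15 and 24 in Qa2-.

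Of the 8 genes of natriuretic ligands and their processing, 5 passed the filter, with a median log2 fold change of 0.14. The most abundant was Guca2b, which encodes uroguanylin, a peptide hormone that acts on guanylyl cyclase C, with 50441 and 32654 counts in WT and 20097 and 22112 in Qa2-. Its groups did not overlap, and the log2 fold change was 0.82 (SE 0.30), with an edgeR p of 0.0385, an adjusted p of 0.313 and a DESeq2 adjusted p of 0.0602. Its receptor gene Gucy2c, named after its values were seen, had 3 and 0 counts in WT and 1 and 0 in Qa2-, so that ligand transcripts were present almost without those of the receptor. Furin, a protease that processes C-type natriuretic peptide, was at 196 and 151 CPM in WT and 203 and 294 CPM in Qa2- (edgeR adjusted p 0.416). The ligands of the receptors above were scarce, and they are named here after their values were seen. Nppa, which encodes atrial natriuretic peptide, had 121 and 144 counts in WT and 66 and 16 in Qa2- (edgeR p 0.0695, adjusted p 0.359). Nppb, which encodes brain natriuretic peptide, had 56 and 30 counts in WT and 7 and 4 in Qa2-, below the filter. Nppc, which encodes C-type natriuretic peptide, was at 1.15 and 3.87 CPM in WT and 1.80 and 2.74 CPM in Qa2-, with overlapping groups. Mme, which encodes neprilysin, a peptidase that degrades natriuretic peptides, was higher in both Qa2- libraries, at 49.3 and 58.1 CPM in WT and 86.1 and 72.0 CPM in Qa2-. Its log2 fold change was -0.56 (SE 0.17), with an edgeR p of 0.0232 and an adjusted p of 0.286.

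Of the 7 other guanylyl cyclases, 1 passed the filter and 2, Gucy1b2 and Gucy2f, had 0 counts in every library. Gucy1a2, the other alpha subunit of soluble cyclase, was at 1.69 and 1.46 CPM in WT and 2.54 and 1.14 CPM in Qa2- (edgeR adjusted p 0.855). Per kilobase, Gucy1a1 was 31.6 to 32.6 times higher than Gucy1a2 in WT and 10.8 to 20.5 times higher in Qa2-, so that the alpha subunit transcripts were nearly all Gucy1a1 in every library. Gucy2g, a membrane cyclase, had 16 to 36 counts and was below the filter.

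All 12 genes of the kinase list passed the filter, with a median log2 fold change of 0.04. Rgs2, a regulator that ends signalling by contractile receptors and is activated by the kinase, was at 311 and 266 CPM in WT and 432 and 481 CPM in Qa2-. Its groups did not overlap, with Qa2- higher, and its log2 fold change was -0.66 (SE 0.21), with an edgeR p of 0.0264, an adjusted p of 0.294 and a DESeq2 adjusted p of 0.0578. Atp2a2, the calcium pump of the sarcoplasmic reticulum, was at 297 and 349 CPM in WT and 362 and 342 CPM in Qa2- (edgeR adjusted p 0.799). Among other phosphodiesterases and cGMP export, 8 of 11 genes passed, with a median of -0.05. Abcc4, an exporter of cyclic nucleotides, was at 164 and 73.8 CPM in WT and 206 and 176 CPM in Qa2- (edgeR adjusted p 0.457). Pde3a, a phosphodiesterase that cGMP inhibits, was at 51.4 and 79.8 CPM in WT and 66.1 and 54.1 CPM in Qa2- (edgeR adjusted p 0.840). Pde1a, a calcium-dependent phosphodiesterase named after its values were seen, was at 12.3 and 13.9 CPM in WT and 21.5 and 20.1 CPM in Qa2-, with an edgeR p of 0.0122 and an adjusted p of 0.271.

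**Figure D4:**
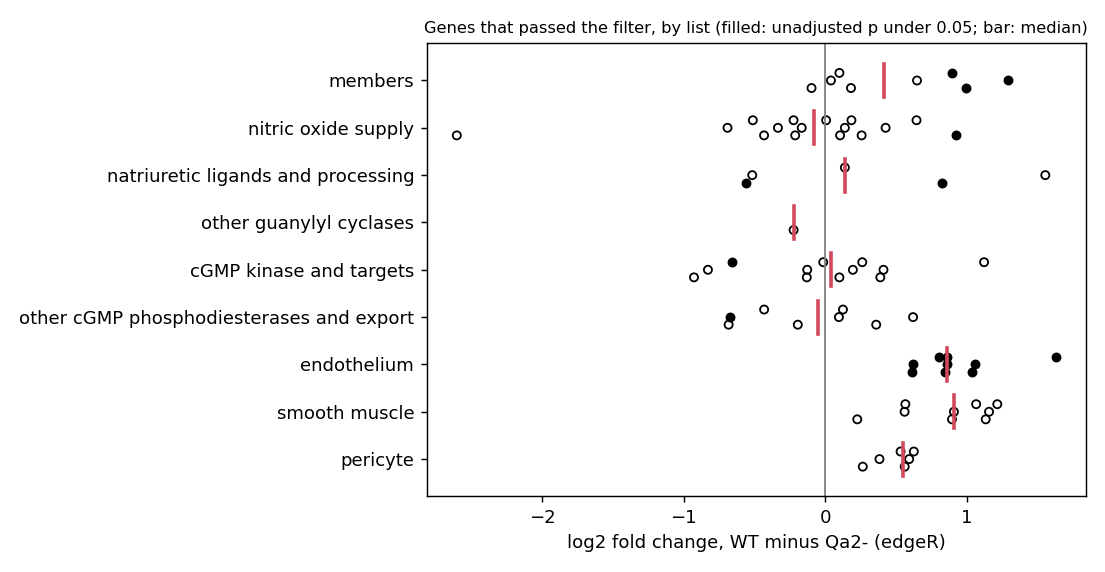
Fitted log2 fold change, WT minus Qa2-, of each gene that passed the filter, by list, with filled circles for an unadjusted edgeR p under 0.05 and a red bar at the median of the list. The top line, named members, holds the 8 genes described first (median 0.42), the next 5 lines the wider pathway, with medians from -0.22 to 0.14, and the last 3 the endothelial, smooth muscle and pericyte markers, with medians of 0.86, 0.91 and 0.55.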

How the data were processed

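RNA was measured by paired, strand-marked RNA sequencing of 4 uteri. The paper speaks of whole uterine lysates, and its methods give a small weight of frozen tissue per uterus for the RNA isolation. A library may thus not represent the whole organ. The authors deposited raw whole-number counts of read pairs for 55421 genes of GRCm38. Per the file headers these were made with featureCounts 2.0.0 with reverse-strand counting, and the submitters' processing notes name STAR 2.7.3a. A symbol was found in the annotation for 55154 genes, 267 had none, and 107 further identifiers of a repeated symbol were left out of the gene table.

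Libraries were grouped by the strain in the labels, and the 2 libraries of a group differed by far more than sampling noise (chi-square per gene 240.8 for WT and 150.9 for Qa2-). The p-values weigh the difference between the groups against the spread within them, which with 2 libraries per group is estimated partly from all genes. They cover these 4 mice only. Counts were tested with edgeR 4.0.16 in R 4.3.3 (TMM, quasi-likelihood F test, two-sided), over the 14492 genes that reached 1 CPM in 2 or more libraries, with Benjamini-Hochberg adjustment over all of them and a threshold of 0.05. CPM is per 1000000 of the TMM-scaled total, and 3 counts are used as the limit that a count of 0 allows, for counting error only. The fits were also tested on simulated counts of this design, where edgeR, and to a greater extent DESeq2 and the replicate block, called more unchanged genes than the threshold allows. Alternatives were DESeq2 1.42.0, other scalings and filters, the replicate number as a block, and each library left out.

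The lists of pathway genes and markers, like the 10 genes, were chosen with earlier results of these data known. All 10 genes, the 2 genes with the highest mean CPM of each pathway list, any list gene with an adjusted p under 0.05, and H2-Q6 and H2-Q7 were to be named. Other genes were named after their values were seen. Promoter windows of 250 bases are those of RefSeq.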

Additional observations from a re-analysis of the deposited data

How the results depend on the processing

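No result over the 10 genes passed the adjusted edgeR threshold, and under DESeq2 3 did, Nos3, Gucy1a1 and Gucy1b1, all higher in WT. Over all genes, DESeq2 called 404 genes with WT higher and 296 with Qa2- higher, edgeR without a filter called 47 and 14, and the replicate block called 2 higher in WT. Without one library in turn, edgeR called 0 to 88 genes higher in WT, with 88 without WT replicate 2 and 4 without WT replicate 1, and 0 to 5 higher in Qa2-, with 5 without WT replicate 2. The replicate block changed no call among the 10 genes. The numbers share no source in the labels, and deviations of same-numbered libraries correlated at -0.37, so a crossed pairing was added after the data were seen, which called 0 genes in all and 0 of the 10. The median log2 fold change of the 8 genes was -0.57 with libraries scaled to the smooth muscle markers and -0.59 with the endothelial markers, while all genes moved to medians of -0.99 and -1.003. Single genes turned with the smooth muscle markers for Nos3 (-0.065), Pde5a (-0.94), Npr1 (-0.82), Npr2 (-0.87) and Npr3 (-0.32), and with the endothelial markers for Nos3 (-0.10), Gucy1a1 (-0.017), Pde5a (-0.95), Npr1 (-0.82), Npr2 (-0.89) and Npr3 (-0.35). Others kept their direction but moved. With the smooth muscle markers Gucy1b1 went from 1.29 to 0.42, Gucy1a1 from 0.996 to 0.067 and Prkg1 from -0.10 to -1.03. With the endothelial markers Gucy1b1 went to 0.28 and Prkg1 to -1.08. With library totals alone Pde5a was at -0.052. Without 1 library, Prkg1 ranged from -0.48 to 0.43, turning without WT replicate 1 (0.15) and Qa2- replicate 1 (0.43). Without WT replicate 2 and Qa2- replicate 2, Pde5a turned to -0.24 and -0.19 within a range up to 0.31, and Npr2 to -0.14 and -0.12 within a range up to 0.37. Of the other values, 82 summaries and 94 single-gene values kept their direction and call or moved by less than the spread. Many of these summaries were counts of called genes that were 0 in the main fit and stayed at 0, so they show little about robustness. Dividing by a marker sum lowers every gene by construction, and the cause of the other changes was not tested. Nos1 and Corin, at 0 to 15 counts, were left out by the filter.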
